A study of Danio rerio with 12 samples.

Results

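Autophagy genes were followed in white skeletal muscle of zebrafish that were exercised or not and that carried a mutated or a wild-type glucocorticoid receptor (Gr). The genes were taken by name: those that begin with atg and a digit, map1lc3, gabarap, ulk and a digit, becn, sqstm, wipi, bnip3, tp53inp, rb1cc1, ambra1, optn, nbr1 or uvrag, whatever their letter case. Of 51 genes with such a name, 45 had 10 or more counts in 3 or more of the 12 libraries and are the autophagy genes described here, and 16056 of the 31962 genes listed did so in the whole series. The name rule itself uses no expression value other than this minimum, but it was chosen with earlier results of these data known.

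Each of the 4 groups had 3 libraries of RNA from white muscle, with reads counted per gene. The first group was exercised Gr mutants, which were forced to swim at 0.4 m/s for 6 h a day on 5 days a week during 4 weeks. The non-exercised Gr mutants were kept at 0.1 m/s over the same time, and the exercised and non-exercised wild-type fish were treated in the same 2 ways. The wild-type fish were 3 months old as obtained, and the age of the Gr mutants is not given in the sources used here. The Gr mutants carry the s357 allele of nr3c1, a single altered base in the part of Gr that binds DNA, present in all cells of the body. Genotypes were assigned from cDNA after the swimming period, and each regimen had a swim tunnel of its own, so that tunnel and exercise cannot be told apart. In such bulk tissue, fewer cells of a type and less RNA per cell cannot be told apart either.

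Autophagy encloses parts of the cytoplasm in a double membrane, the autophagosome, which then fuses with the lysosome so that its content is degraded and recycled. A kinase complex around Ulk1 starts the process, a lipid kinase complex around Beclin 1 marks the membrane with phosphatidylinositol 3-phosphate, and a conjugation system related to ubiquitination attaches proteins of the Atg8 family (LC3 and GABARAP) to it. Cargo receptors such as p62 link ubiquitinated material to these Atg8 proteins, and skeletal muscle is a tissue in which autophagy is known to respond to fasting, denervation and endurance exercise in mammals.

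Between 7688323 and 13894240 reads were counted on genes per library, and the autophagy genes together took 0.0628% to 0.135% of them. The lowest totals, 7688323 and 8606580 reads, were those of exercised Gr mutants 2 and 3. Their 10 most abundant genes took 44.9% and 46.1% of the counts, against at most 42.0% in the other libraries. Levels are given as CPM, the usual unit of read counts relative to the total of their library, with totals scaled by TMM factors over the 12 libraries, and are compared between groups for one gene at a time, never between genes. nr3c1 itself was transcribed in all libraries, between 27.4 and 66.7 CPM, and its level did not check the genotype, since the mutation is a base change (edgeR adjusted p = 0.792 for Gr mutant over wild-type fish with exercise and 0.569 without). All 10 markers of fast muscle were detected in every group. They summed to 177300, 249600 and 237100 CPM in exercised Gr mutants, against 136400, 138700 and 232700 CPM in non-exercised Gr mutants. Wild-type fish had 110400, 182600 and 125600 CPM with exercise, against 206000, 233300 and 136300 CPM without. The medians were thus higher with exercise in Gr mutants and lower in wild-type fish, and the groups overlapped. The 6 slow muscle markers found varied within groups, with sums of 804.9 to 2325 CPM in exercised Gr mutants, against 2254 to 2798 CPM in non-exercised Gr mutants, and of 5583, 905 and 1144 CPM in exercised wild-type fish, against 4355, 4654 and 815 CPM in non-exercised wild-type fish. The part of the fast and slow muscle markers in the values of the autophagy genes was not tested. Markers of other cells moved with single libraries: 5 leukocyte markers summed to 1304, 911 and 170.4 CPM in the 3 non-exercised Gr mutants and to between 106 and 453 CPM in all other libraries, 7 oocyte markers to 197 CPM in exercised Gr mutant 3 and to at most 18.9 CPM elsewhere, and 5 erythrocyte markers to 2510 CPM in exercised wild-type fish 2 and to at most 478 CPM elsewhere. The number of genes that passed the threshold depended on single libraries. For exercise in Gr mutants 58 genes passed without non-exercised Gr mutant 3, against 0 with it. For the Gr mutation without exercise 544 passed without that library, against 35 with it and 0 without non-exercised wild-type fish 2 or 3. For the Gr mutation with exercise 426 passed with all libraries, 6 without exercised Gr mutant 2 and 508 without exercised wild-type fish 3. Fold changes are on the log2 scale with their standard error, and p-values are two-sided values of edgeR's quasi-likelihood test, adjusted by Benjamini-Hochberg over all genes tested and called under 0.05.

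The first question was whether exercise altered these genes. Over both genotypes, 4 of the 45 autophagy genes were called and all 4 rose, against 1.24% of all 16056 genes called and 0.76% called as higher. They were tp53inp1, a p53-inducible nuclear protein that binds Atg8 proteins in mammals, ulk1b, a kinase at the start of autophagosome formation, wipi1, a reader of phosphatidylinositol 3-phosphate on the growing membrane, and nbr1, a receptor for ubiquitinated cargo. In 7 of the 45 genes every exercised library was above every non-exercised library of its genotype in both genotypes, and this held for 1.92% of all genes. The 7 were the 4 named above with ulk1a, ATG14 and RB1CC1, and the reverse pattern, 1.44% of all genes, was seen in sqstm1 alone. The median log2 fold change was 0.16 over the 45 genes and -0.0099 over all genes, with 30 of 45 above 0, and 11 of the 45 had an unadjusted p under 0.05, against 15.1% of all genes. Of these 10 were higher, against 7.79%, and 1 was lower, against 7.32%. DESeq2 called 9 autophagy genes over both genotypes, against 4.83% of all genes. Of these 8 were higher, against 2.74% of all genes, and 1 was lower, against 2.09%.

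tp53inp1 (ENSDARG00000028017) had 25.3, 27.4 and 22.3 CPM in exercised Gr mutants, against 5.84, 3.53 and 10.7 CPM in non-exercised Gr mutants. In wild-type fish it had 15.9, 12.6 and 25.4 CPM with exercise, against 6.30, 6.17 and 5.88 CPM without. All 6 exercised fish were thus above all 6 non-exercised fish, and the non-exercised wild-type fish were nearly equal to each other. Its log2 fold change was 1.92 ± 0.38 in Gr mutants (edgeR adjusted p = 0.346) and 1.57 ± 0.28 in wild-type fish (edgeR adjusted p = 0.0742), and it rose by 1.74 ± 0.25 over both (edgeR adjusted p = 0.00942). This call held with each of the 12 libraries left out in turn, with adjusted p-values up to 0.0327. Without non-exercised Gr mutant 3, which had the highest level of the non-exercised fish, the log2 fold change within Gr mutants was 2.39 and passed the threshold too (edgeR adjusted p = 0.0409, against up to 0.713 without other libraries). tp53inp1 is also a gene that the study singled out in these same libraries.

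Both zebrafish copies of Ulk1, the kinase that receives signals from nutrient and energy sensors in mammals, were higher with exercise. ulk1b (ENSDARG00000074481) had 3.79, 3.79 and 5.54 CPM in exercised Gr mutants, against 2.24, 2.83 and 2.13 CPM in non-exercised Gr mutants. Its levels in wild-type fish were 4.18, 6.81 and 3.23 CPM with exercise, against 2.47, 1.95 and 1.66 CPM without. The groups of neither genotype overlapped, and over both genotypes ulk1b rose by 1.04 ± 0.22 (edgeR adjusted p = 0.0440). This value lay close to the threshold: the call was kept without non-exercised Gr mutant 2 (adjusted p = 0.0482) and lost without any one of the other 11 libraries, with adjusted p-values of 0.0538 to 0.0971. ulk1a (ENSDARG00000062518) had 89.2, 71.7 and 114 CPM in exercised Gr mutants, against 14.5, 25.1 and 66.1 CPM in non-exercised Gr mutants, and 81.3, 147 and 123 CPM in exercised wild-type fish, against 49.9, 13.1 and 26.1 CPM in non-exercised wild-type fish. No exercised library fell to the level of a non-exercised library, the closest pair being exercised Gr mutant 2 and non-exercised Gr mutant 3. Its difference was larger than that of ulk1b on the log2 scale, 1.68 ± 0.39 over both genotypes, but varied more and did not pass the threshold (edgeR adjusted p = 0.0544). Without non-exercised Gr mutant 3 it was 2.08 (edgeR adjusted p = 0.0104), and with other libraries left out the adjusted p reached up to 0.117.

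wipi1 (ENSDARG00000040657) had 7.42, 5.94 and 7.89 CPM in exercised Gr mutants, against 2.12, 2.20 and 3.14 CPM in non-exercised Gr mutants. In wild-type fish its levels were 5.17, 3.89 and 5.55 CPM with exercise, against 3.41, 2.26 and 2.55 CPM without. The lowest exercised fish of either genotype, exercised wild-type fish 2, was above all 6 non-exercised fish. Over both genotypes it rose by 1.17 ± 0.20 (edgeR adjusted p = 0.0212), a call kept with 11 of the 12 libraries left out and lost without non-exercised wild-type fish 2 (adjusted p = 0.0533). A further gene named WIPI1 (1 of 2) (ENSDARG00000037357) had 2.31, 1.65 and 3.46 CPM in exercised Gr mutants, against 1.24, 0.578 and 0.370 CPM in non-exercised Gr mutants. In wild-type fish it had 3.61, 4.28 and 2.40 CPM with exercise, against 2.98, 1.03 and 1.48 CPM without, and here non-exercised fish 1 lay within the range of the exercised fish. Its log2 fold change over both genotypes was 1.27 ± 0.35 (edgeR adjusted p = 0.0955).

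Among the cargo receptors 1 gene was called. nbr1 (ENSDARG00000077297) had 22.9, 28.0 and 20.4 CPM in exercised Gr mutants, against 15.8, 9.31 and 14.1 CPM in non-exercised Gr mutants. Wild-type fish had 25.2, 29.5 and 30.6 CPM with exercise, against 16.2, 6.89 and 12.8 CPM without. All 6 exercised fish were above all 6 non-exercised fish, and nbr1 rose by 1.05 ± 0.21 over both genotypes (edgeR adjusted p = 0.0364). The call was kept without non-exercised wild-type fish 1, non-exercised Gr mutant 1 or non-exercised Gr mutant 3 and lost without any one of the other 9 libraries, with adjusted p-values of 0.0512 to 0.0782. sqstm1 (ENSDARG00000075014), which encodes p62, had 13.7, 17.6 and 12.7 CPM in exercised Gr mutants, against 21.5, 19.0 and 17.8 CPM in non-exercised Gr mutants. In wild-type fish it had 14.3, 20.04 and 17.9 CPM with exercise, against 28.0, 22.9 and 22.3 CPM without. Here the exercised fish were the lower ones in both genotypes with no overlap, by a narrow margin in Gr mutants, and the log2 fold change of -0.45 ± 0.14 did not pass the threshold (edgeR adjusted p = 0.137). The other receptor genes, NBR1 (2 of 2) and optn, overlapped between regimens in both genotypes.

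**Figure D1:**
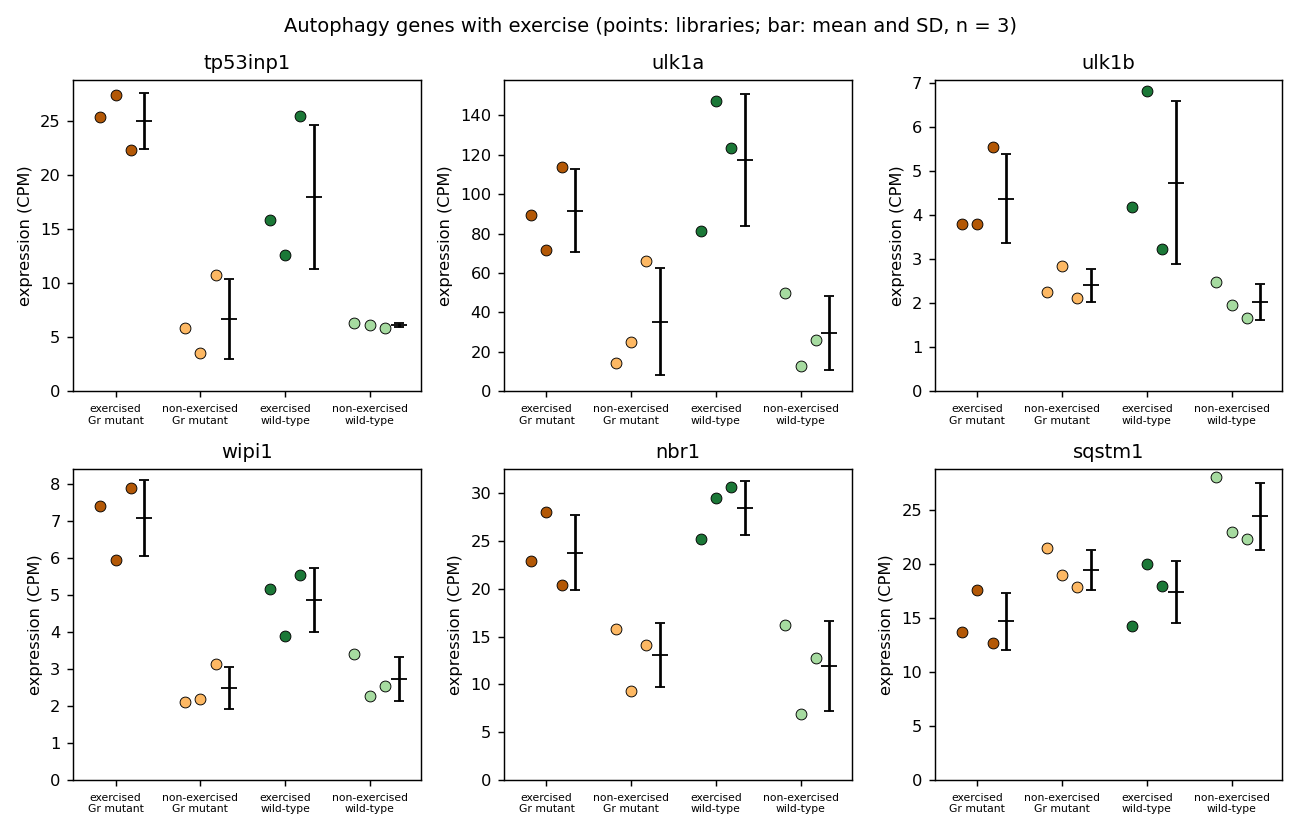
Expression of 6 autophagy genes (CPM, linear axis from 0) in exercised and non-exercised Gr mutants and in exercised and non-exercised wild-type fish; each point is 1 library and the bar beside them is the mean with its SD (n = 3). In tp53inp1, ulk1a, ulk1b, wipi1 and nbr1 the exercised libraries lie above the non-exercised libraries of the same genotype, and in sqstm1 they lie below.

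ATG14, the subunit that directs the Beclin 1 complex to the site of autophagosome formation, had 10.6, 10.6 and 10.7 CPM in exercised Gr mutants, against 7.38, 5.32 and 8.14 CPM in non-exercised Gr mutants. Its levels in wild-type fish were 12.8, 15.1 and 13.4 CPM with exercise, against 11.2, 5.86 and 9.26 CPM without. The groups did not overlap in either genotype, and the log2 fold change was 0.61 ± 0.25 in Gr mutants, 0.65 ± 0.25 in wild-type fish (0.43 without non-exercised wild-type fish 2) and 0.63 ± 0.17 over all 12 libraries (edgeR adjusted p = 0.0837). All 5 genes of this lipid kinase group had positive log2 fold changes in each genotype, with a median of 0.61 in Gr mutants and 0.23 in wild-type fish, and none was called. becn1, the gene of Beclin 1, had 5.85, 4.78 and 6.64 CPM in exercised Gr mutants, against 4.25, 5.78 and 4.71 CPM in non-exercised Gr mutants, and 5.03, 10.2 and 7.36 CPM in exercised wild-type fish, against 6.73, 4.94 and 6.53 CPM in non-exercised wild-type fish. Its groups overlapped in both genotypes. ambra1a, a regulator of Beclin 1, had 6.43, 7.92 and 10.5 CPM in exercised Gr mutants, against 4.31, 5.96 and 3.70 CPM in non-exercised Gr mutants, with no overlap and a log2 fold change of 0.82 ± 0.31 (edgeR adjusted p = 0.455). Its levels in wild-type fish, 8.50, 6.32 and 6.45 CPM with exercise and 5.45, 6.99 and 6.77 CPM without, overlapped. RB1CC1, the scaffold of the Ulk1 complex, is mentioned here after its values were seen: its log2 fold change was 0.35 ± 0.12 over both genotypes, with groups that did not overlap in either of them (edgeR adjusted p = 0.173).

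Within a single genotype no autophagy gene was called by edgeR. On simulated data these fits called 3% of changes of 1 on the log2 scale and 74% of changes of 2 in Gr mutants. In wild-type fish they called 0% of changes of 1 and 64% of changes of 2. The changed genes were drawn from those above a minimum mean level, which ulk1b, wipi1, ATG7 and atg12, among others, did not reach. For genes below this level the shares were not simulated. In Gr mutants 0 of 43 tested genes passed, against 0.0% of all 14584 genes, while 9 had an unadjusted p under 0.05, all of them higher, against 10.5% of all genes in either direction and 4.88% in this one. DESeq2 called 2 of them there, tp53inp1 and wipi1, against 0.72% of all genes. In wild-type fish 0 of 44 passed, against 0.37% of all 14597 genes, while 8 had an unadjusted p under 0.05, 7 higher and 1 lower, against 13.9% of all genes in either direction, 7.32% for higher and 6.58% for lower ones. DESeq2 called 3, tp53inp1, ulk1a and nbr1, against 2.71% of all genes. Groups that did not overlap were found for 16 autophagy genes in Gr mutants (14 higher against 9.11% of all genes and 2 lower against 7.08%, which makes 16.2% in either direction) and for 11 in wild-type fish (8 higher against 10.4% and 3 lower against 10.1%, 20.4% in either direction). The median log2 fold change of the autophagy genes was 0.32 in Gr mutants and 0.089 in wild-type fish, against -0.023 and 0.027 for all genes tested. With 1 library left out, the median in wild-type fish was 0.15 and 0.051 without exercised wild-type fish 1 and 2, 0.028 without exercised wild-type fish 3, and 0.17 and 0.037 without non-exercised wild-type fish 1 and 2. The median in Gr mutants was 0.20 without non-exercised Gr mutant 3 and 0.43 without non-exercised Gr mutant 1. As a share of all counts, without TMM factors, the autophagy genes together overlapped between regimens in both genotypes. They took 0.0915%, 0.0684% and 0.0756% in exercised Gr mutants, against 0.1147%, 0.0829% and 0.0628% in non-exercised Gr mutants. Wild-type fish had 0.1115%, 0.1279% and 0.1299% with exercise, against 0.129%, 0.0788% and 0.1347% without.

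The genes that build the Atg8 conjugates gave no called difference with exercise. ATG7, the activating enzyme, had 1.98, 2.97 and 2.77 CPM in exercised Gr mutants, against 3.72, 2.60 and 0.740 CPM in non-exercised Gr mutants, and 1.56, 1.65 and 2.03 CPM in exercised wild-type fish, against 1.11, 1.54 and 1.96 CPM in non-exercised wild-type fish. atg5, joined to Atg12 in the complex that attaches Atg8 proteins to lipid, had 5.19, 7.92 and 6.92 CPM in exercised Gr mutants, against 6.73, 6.88 and 7.86 CPM in non-exercised Gr mutants, and 4.74, 6.03 and 6.76 CPM in exercised wild-type fish, against 6.30, 6.89 and 6.35 CPM in non-exercised wild-type fish. Both genes overlapped between regimens, with log2 fold changes over both genotypes of 0.13 ± 0.32 for ATG7 and -0.13 ± 0.15 for atg5. atg12, the partner of Atg5, had 1.15, 1.81 and 1.11 CPM in exercised Gr mutants, against 1.77, 0.925 and 1.29 CPM in non-exercised Gr mutants, and 2.05, 1.65 and 1.501 CPM in exercised wild-type fish, against 1.96, 1.44 and 2.49 CPM in non-exercised wild-type fish. atg16l1, which places this pair on the membrane, had 13.5, 10.4 and 12.2 CPM in exercised Gr mutants, against 14.2, 14.3 and 12.5 CPM in non-exercised Gr mutants, and 10.6, 16.7 and 12.5 CPM in exercised wild-type fish, against 15.8, 15.6 and 17.3 CPM in non-exercised wild-type fish. These too overlapped. atg4da, a protease that processes Atg8 proteins, had 3.89, 3.50 and 3.83 CPM in exercised wild-type fish, against 1.87, 2.47 and 2.20 CPM in non-exercised wild-type fish, with no overlap and a log2 fold change of 0.79 ± 0.24 (edgeR adjusted p = 0.203). Its levels in Gr mutants, 3.38, 1.32 and 2.22 CPM with exercise and 2.24, 3.18 and 1.94 CPM without, overlapped. atg10 rested on few counts, 137 in the 12 libraries together, of which 48 were in non-exercised Gr mutant 1.

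The 6 genes of the Atg8 family had log2 fold changes with exercise between -0.14 and 0.32 over both genotypes, and none had an unadjusted p under 0.05 there. ulk2, a further kinase of the Ulk family, had 44.9, 38.3 and 38.8 CPM in exercised Gr mutants, against 13.7, 24.7 and 43.4 CPM in non-exercised Gr mutants, and 41.6, 42.1 and 25.4 CPM in exercised wild-type fish, against 75.7, 41.0 and 34.1 CPM in non-exercised wild-type fish. ulk2 thus overlapped between regimens in both genotypes. atg9a, a membrane protein of the vesicles that seed autophagosomes, had 33.2, 34.1 and 29.9 CPM in exercised Gr mutants, against 25.7, 21.6 and 15.2 CPM in non-exercised Gr mutants. These groups did not overlap (log2 fold change 0.63 ± 0.27, edgeR adjusted p = 0.466), whereas the wild-type fish, with 27.4, 38.3 and 43.3 CPM with exercise and 41.0, 23.4 and 35.4 CPM without, did.

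**Figure D2:**
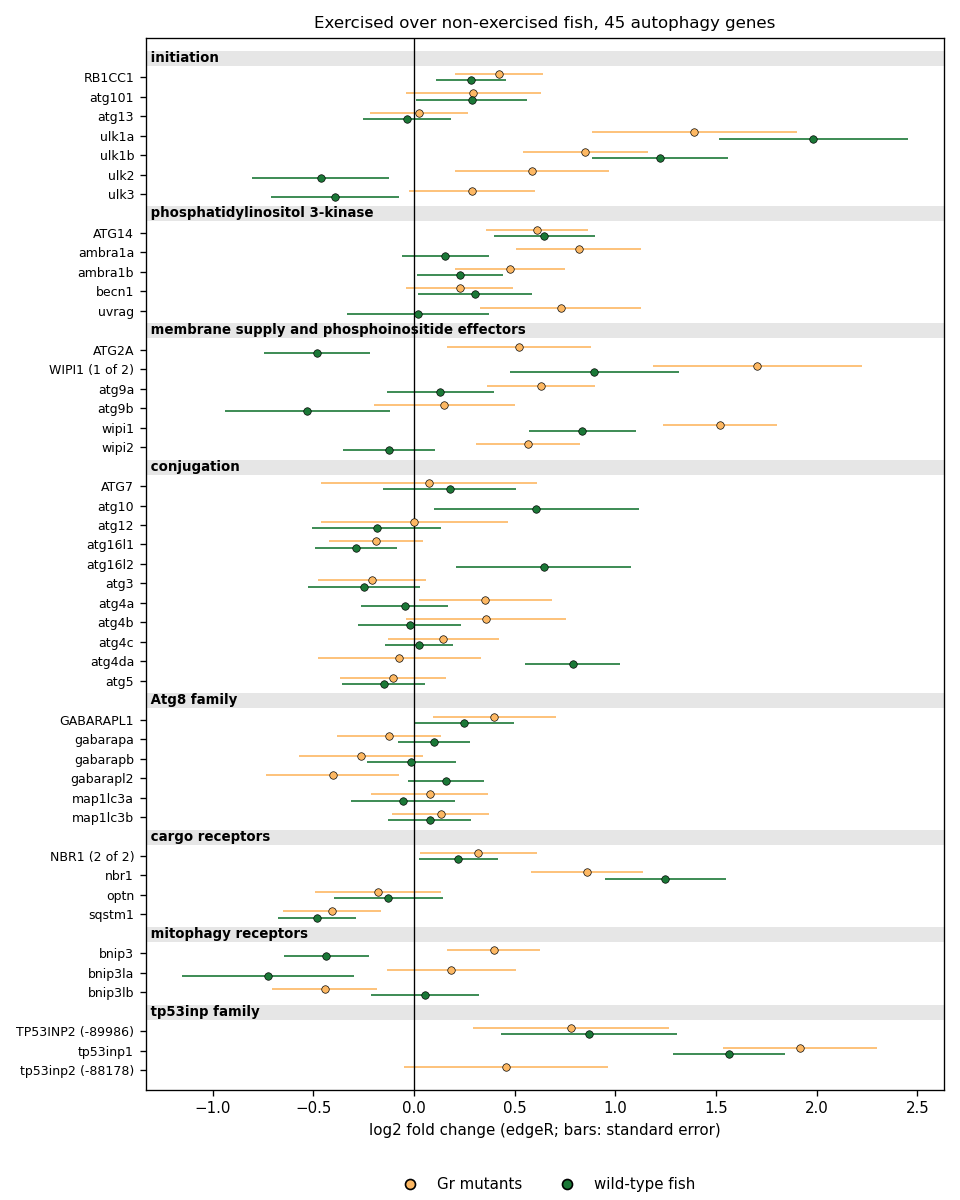
Log2 fold change of exercised over non-exercised fish with its standard error (edgeR) for the 45 autophagy genes, grouped by role, in Gr mutants (upper point of each gene) and in wild-type fish (lower point); a point is missing where a gene had too few counts in that fit, and endings in brackets tell apart 2 identifiers that share a symbol. tp53inp1, ulk1a, ulk1b, wipi1 and nbr1 stand to the right in both genotypes, sqstm1 to the left in both, and bnip3 on opposite sides.

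Whether exercise acted differently in Gr mutants than in wild-type fish was tested as an interaction over the 12 libraries. On simulated data this edgeR test called 0% of differences of 1 on the log2 scale and 23% of differences of 2. The changed genes were again drawn from those above the minimum mean level. edgeR called 0 of the 45 autophagy genes and 0.0% of all 16056 genes, with a lowest adjusted p of 0.490, and DESeq2 called 0 autophagy genes and 0.199% of all genes. An unadjusted p under 0.05 was found for 2 autophagy genes, bnip3 and ATG2A, against 8.39% of all genes, both with a higher response in Gr mutants, against 3.31%, and 0 with a lower one, against 5.08%. bnip3, which marks mitochondria for degradation and binds Atg8 proteins in mammals, had 64.8, 61.7 and 56.9 CPM in exercised Gr mutants, against 48.3, 46.2 and 44.5 CPM in non-exercised Gr mutants. In wild-type fish it had 56.3, 56.7 and 60.9 CPM with exercise, against 99.9, 66.3 and 69.8 CPM without. The exercised fish were thus higher in Gr mutants and lower in wild-type fish, without overlap in either genotype, and the difference between both log2 fold changes was 0.84 ± 0.28 (edgeR adjusted p = 0.490). Of all genes 9.11% were higher without overlap in Gr mutants and 10.1% were lower without overlap in wild-type fish. The share of all genes with both was not counted. ATG2A, a lipid transfer protein that feeds the growing membrane, had 12.5, 14.0 and 15.9 CPM in exercised Gr mutants, against 12.5, 11.6 and 5.08 CPM in non-exercised Gr mutants, and 10.7, 18.3 and 11.5 CPM in exercised wild-type fish, against 22.0, 14.4 and 20 CPM in non-exercised wild-type fish. Its difference between both log2 fold changes was 1.01 ± 0.46 (edgeR adjusted p = 0.591), and non-exercised Gr mutant 3 was the lowest of all libraries. For the 4 genes that rose over both genotypes this difference was 0.36 ± 0.50 in tp53inp1, 0.69 ± 0.37 in wipi1, -0.39 ± 0.42 in nbr1 and -0.36 ± 0.45 in ulk1b, so that the data allow a stronger as well as a weaker response in Gr mutants for each within 2 standard errors.

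Gr mutants were compared with wild-type fish next. The study used a Gr mutant line obtained from another laboratory, and reports that Gr mutants were bigger than wild-type fish. Background of the line and body size thus cannot be told apart from the mutation. Over both regimens 2 of the 45 autophagy genes were called, TP53INP2 and atg9b, both lower in Gr mutants, against 7.93% of all 16056 genes called and 4.63% called as lower. A further 11 genes, all lower in Gr mutants, had an unadjusted p under 0.05 without passing the adjustment, which makes 13 of 45 in this direction, against 12% of all genes, and 0 of 45 were higher, against 13.3% (25.4% of all genes in either direction). DESeq2 called 5 autophagy genes here, against 13.3% of all genes. In 4 genes every Gr mutant was below every wild-type fish of its regimen in both regimens (map1lc3b, RB1CC1, atg9b and TP53INP2), which held for 3.71% of all genes. The median log2 fold change was -0.34 over the 45 genes, with 35 of them below 0, and 0.062 over all genes. The comparisons of the mutation and of exercise share their libraries and are not independent of each other.

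TP53INP2 (ENSDARG00000089986), named after a nuclear protein that in mammals moves to autophagosomes, binds LC3 and promotes autophagy in muscle, had the largest difference. It had 21.0, 16.3 and 19.4 CPM in exercised Gr mutants, against 83.9, 189 and 82.9 CPM in exercised wild-type fish. Without exercise it had 3.42, 16.3 and 13.4 CPM in Gr mutants, against 34.4, 67.0 and 93.1 CPM in wild-type fish. All 6 Gr mutants were below all 6 wild-type fish, although levels varied widely within each group except the exercised Gr mutants. The log2 fold change was -2.67 ± 0.34 with exercise (edgeR adjusted p = 0.0138), -2.55 ± 0.59 without (edgeR adjusted p = 0.128) and -2.60 ± 0.37 over both regimens (edgeR adjusted p = 0.00266). The call over both regimens held with each library left out, with adjusted p-values up to 0.0104, while the call with exercise was lost without exercised Gr mutant 2 (0.0836) or exercised Gr mutant 3 (0.0738). Its difference between regimens was smaller, 0.83 ± 0.36 over both genotypes (edgeR adjusted p = 0.295). The other gene of this symbol, tp53inp2 (ENSDARG00000088178), had 1.73, 0.495 and 1.11 CPM in exercised Gr mutants, against 0.779, 0.584 and 0.826 CPM in wild-type fish that were exercised, and 0.590, 0.868 and 1.11 CPM in non-exercised Gr mutants, against 0.766, 0.206 and 0.356 CPM in non-exercised wild-type fish. These few counts overlapped between genotypes, with a log2 fold change of 0.78 ± 0.38 over both regimens, of the opposite sign (edgeR adjusted p = 0.217).

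atg9b (ENSDARG00000055292), a second gene of the Atg9 membrane proteins, had 12.9, 20.1 and 13.6 CPM in exercised Gr mutants, against 20.3, 41.0 and 20.9 CPM in exercised wild-type fish. Without exercise it had 19.3, 13.7 and 8.60 CPM in Gr mutants, against 57.0, 20.6 and 40.8 CPM in wild-type fish. All 6 Gr mutants were below all 6 wild-type fish, but exercised Gr mutant 2 nearly reached the lowest wild-type fish. atg9b had a log2 fold change of -1.17 ± 0.30 and thus fell over both regimens (edgeR adjusted p = 0.0334), and this call was kept with 6 of the 12 libraries left out in turn and lost without exercised wild-type fish 2, non-exercised wild-type fish 1 or 3, exercised Gr mutant 1 or 3, or non-exercised Gr mutant 2, with adjusted p-values of 0.0593 to 0.0921. Its paralogue atg9a differed less, with a log2 fold change of -0.42 ± 0.20 (edgeR adjusted p = 0.201).

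**Figure D3:**
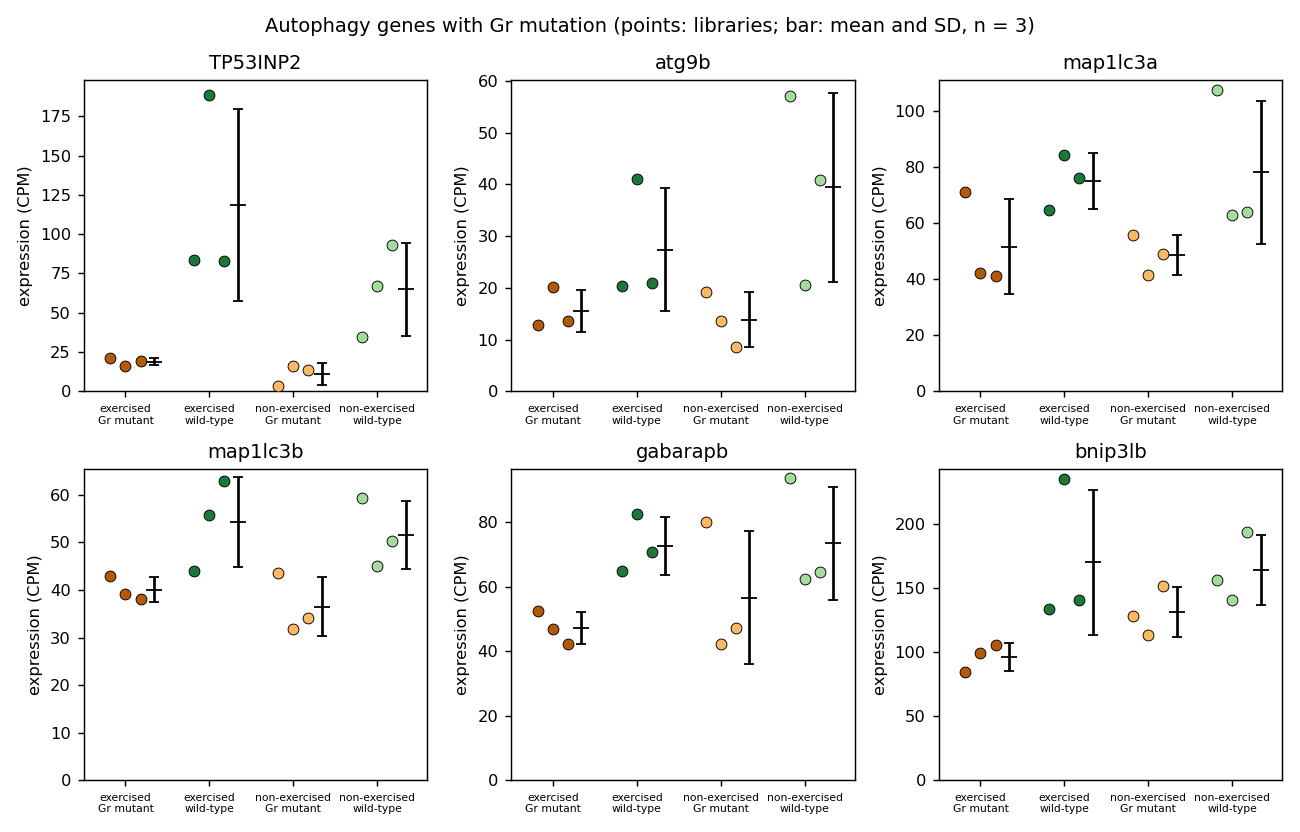
Expression of 6 autophagy genes (CPM, linear axis from 0) in exercised Gr mutants and exercised wild-type fish and in non-exercised Gr mutants and non-exercised wild-type fish; each point is 1 library and the bar beside them is the mean with its SD (n = 3). TP53INP2 is the gene ENSDARG00000089986; in TP53INP2, atg9b and map1lc3b each Gr mutant lies below each wild-type fish, while map1lc3a, gabarapb and bnip3lb overlap in 1 of the 2 regimens.

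No gene of the Atg8 family, the proteins that coat the autophagosome, passed the threshold for the Gr mutation in edgeR. All 6 genes had negative log2 fold changes with exercise, from -0.65 to -0.44, and 5 of 6 without exercise. Over both regimens 5 of the 6 had an unadjusted p under 0.05, all of them lower, against 12% of all genes in this direction and 25.4% in either. map1lc3b, a gene of LC3, had 43.0, 39.3 and 38.1 CPM in exercised Gr mutants, against 44.0, 55.8 and 62.9 CPM in exercised wild-type fish. Without exercise it had 43.5, 31.8 and 34.2 CPM in Gr mutants, against 59.3, 45.03 and 50.4 CPM in wild-type fish. The highest Gr mutant was just under the lowest wild-type fish, and the log2 fold change over both regimens was -0.47 ± 0.14 (edgeR adjusted p = 0.0633). Its adjusted p was 0.0396 without non-exercised Gr mutant 1 and up to 0.117 with another library left out. map1lc3a, the other gene of LC3 in the set, had 71.2, 42.4 and 41.3 CPM in exercised Gr mutants, against 64.6, 84.4 and 76.0 CPM in wild-type fish that were exercised, and 55.7, 41.4 and 49.1 CPM in non-exercised Gr mutants, against 108, 62.8 and 64.0 CPM in non-exercised wild-type fish. Only exercised Gr mutant 1 reached into the range of its wild-type group. The log2 fold change over both regimens was -0.61 ± 0.19 (edgeR adjusted p = 0.0713, 0.0392 without exercised Gr mutant 1 and up to 0.144 with another library left out).

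The 4 GABARAP genes had negative log2 fold changes with exercise, and 3 of them without exercise. No difference between the regimens was called for any of them (edgeR adjusted p for the interaction from 0.751 to 0.957). gabarapb had 52.4, 47.0 and 42.4 CPM in exercised Gr mutants, against 64.9, 82.6 and 70.7 CPM in wild-type fish that were exercised, with a log2 fold change of -0.65 ± 0.19 (edgeR adjusted p = 0.1002). Without exercise it had 80.2, 42.2 and 47.2 CPM in Gr mutants, against 93.7, 62.4 and 64.5 CPM in wild-type fish. The exercised groups did not overlap, while non-exercised Gr mutant 1 lay as high as the wild-type fish. gabarapa had 26.3, 16.7 and 22.8 CPM in exercised Gr mutants, against 27.8, 34.1 and 28.9 CPM in wild-type fish that were exercised, and 27.3, 23.5 and 20.8 CPM in non-exercised Gr mutants, against 30.5, 30.3 and 24.2 CPM in non-exercised wild-type fish. GABARAPL1 (ENSDARG00000040971) had 63.7, 59.2 and 60.5 CPM in exercised Gr mutants, against 66.3, 106 and 79.6 CPM in wild-type fish that were exercised, and 59.8, 28.9 and 50.4 CPM in non-exercised Gr mutants, against 88.2, 56.9 and 67.5 CPM in non-exercised wild-type fish. Both were lower without overlap in the exercised Gr mutants, and overlapped without exercise. With exercise the log2 fold change of gabarapa was -0.50 ± 0.22 (edgeR adjusted p = 0.253), and -0.31 without exercised Gr mutant 2. That of GABARAPL1 was -0.49 ± 0.21 (edgeR adjusted p = 0.254), and -0.28 without exercised wild-type fish 2. Without exercise it was -0.23 ± 0.23 for gabarapa and -0.60 ± 0.33 for GABARAPL1. gabarapl2 had 28.5, 35.8 and 23.3 CPM in exercised Gr mutants, against 34.1, 43.3 and 38.7 CPM in wild-type fish that were exercised, and 54.3, 25.5 and 36.0 CPM in non-exercised Gr mutants, against 36.0, 29.2 and 38.8 CPM in non-exercised wild-type fish. It overlapped in both regimens, and non-exercised Gr mutant 1 had the highest level of all 12 libraries. That library also had the highest sum of leukocyte markers, 1304 CPM, whose part in these values was not tested.

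Without exercise, 0 of 43 tested autophagy genes were called by edgeR, against 0.233% of all 15011 genes. DESeq2 called 2, TP53INP2 and atg9b, against 4.84% of all genes. An unadjusted p under 0.05 was found for 6 genes, all lower in Gr mutants, against 17.2% of all genes, 7.34% in this direction and 9.91% in the other. In 14 genes the non-exercised Gr mutants were lower without overlap, against 11.3% of all genes, and in 0 they were higher without overlap, against 10.7%. bnip3 (the values are given above) had a log2 fold change of -0.75 ± 0.25 here (edgeR adjusted p = 0.200) and of 0.039 ± 0.18 with exercise. bnip3la, a relative of bnip3 known for the removal of mitochondria, had 4.01, 4.92 and 4.44 CPM in non-exercised Gr mutants, against 8.85, 6.99 and 8.78 CPM in non-exercised wild-type fish, and the log2 fold change was -0.87 ± 0.23 (edgeR adjusted p = 0.154). With exercise it had 3.46, 4.95 and 6.92 CPM in Gr mutants, against 1.84, 6.71 and 6.45 CPM in wild-type fish, which overlapped, exercised wild-type fish 1 being the lowest of all libraries. wipi2, the relative of wipi1 that brings the conjugation complex to the membrane in mammals, had 10.9, 9.08 and 11.5 CPM in non-exercised Gr mutants, against 19.3, 12.7 and 19.4 CPM in non-exercised wild-type fish, with a log2 fold change of -0.70 ± 0.26 (edgeR adjusted p = 0.228). With exercise its levels were 13.5, 19.6 and 13.4 CPM in Gr mutants and 12.7, 17.4 and 17.0 CPM in wild-type fish, and overlapped. ATG2A had a log2 fold change of -0.93 ± 0.37 without exercise (edgeR adjusted p = 0.245). The leukocyte markers were 911 and 1304 CPM in non-exercised Gr mutants 2 and 1 and 170.4 CPM in non-exercised Gr mutant 3, and their part in these values was not tested.

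With exercise, 1 of 45 autophagy genes was called, TP53INP2, against 3.02% of all 14106 genes, and 8 had an unadjusted p under 0.05, all lower in Gr mutants, against 19.5% of all genes, 11.6% in this direction and 7.88% in the other. DESeq2 called 1 autophagy gene here, against 6.69% of all genes. Groups that did not overlap were found for 10 genes that were lower, against 12.8% of all genes, and for 1 that was higher, wipi1, against 12.5%. wipi1 had a log2 fold change of 0.50 ± 0.24 between exercised Gr mutants and exercised wild-type fish (edgeR adjusted p = 0.313). bnip3lb, a second copy of the Bnip3-like gene, had 84.4, 99.4 and 106 CPM in exercised Gr mutants, against 134, 236 and 141 CPM in wild-type fish that were exercised, without overlap and with a log2 fold change of -0.85 ± 0.26 (edgeR adjusted p = 0.114), which was -0.54 without exercised wild-type fish 2. Without exercise it had 128, 114 and 152 CPM in Gr mutants, against 157, 141 and 195 CPM in wild-type fish, and these overlapped, with a log2 fold change of -0.31 ± 0.26. A difference between the regimens was not called for bnip3, bnip3la or bnip3lb (edgeR adjusted p for the interaction from 0.490 to 0.769). ATG14 was also lower in exercised Gr mutants without overlap, with a log2 fold change of -0.41 ± 0.18 (edgeR adjusted p = 0.242). The median log2 fold change of the autophagy genes was -0.27 with exercise and -0.35 without, against -0.0078 and 0.048 for all genes tested. The median with exercise was -0.16 without exercised wild-type fish 2.

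**Figure D4:**
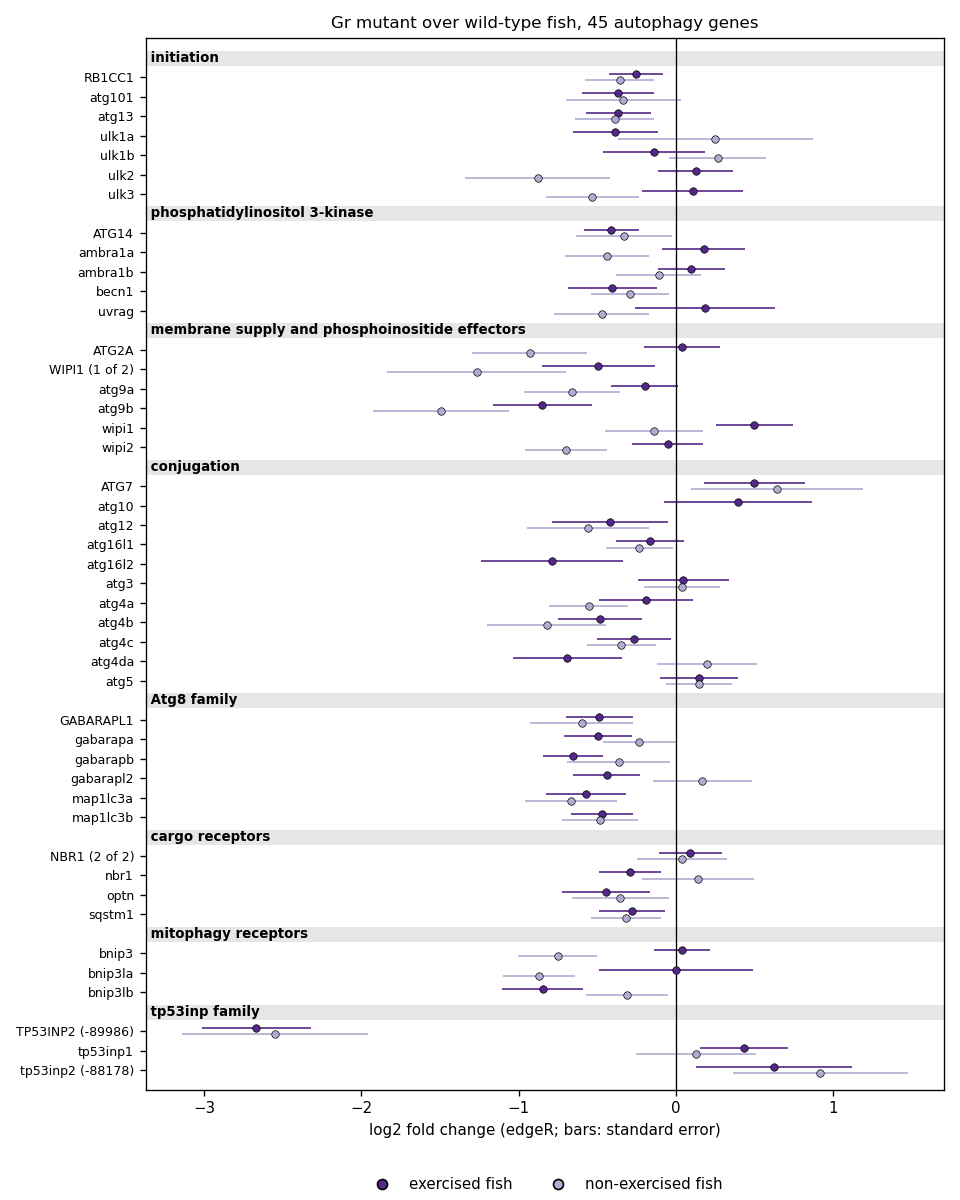
Log2 fold change of Gr mutant over wild-type fish with its standard error (edgeR) for the 45 autophagy genes, grouped by role, in exercised fish (upper point of each gene) and in non-exercised fish (lower point); a point is missing where a gene had too few counts in that fit. TP53INP2 and atg9b stand to the left in both regimens, the Atg8 family lies left of 0 in 11 of 12 points, and bnip3 and bnip3la lie to the left in non-exercised fish and near 0 in exercised fish.

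Other genes of the pathway, from 4 lists written for this purpose, were read in the same fits. These lists were chosen with earlier results of these data known, so that their shares of called genes are descriptive only. The calls in these lists were not followed with single libraries left out. With exercise over both genotypes, 2 of 13 genes of the lipid kinase and membrane list rose, against 0.76% of all genes called as higher and 1.24% in either direction. tecpr1b rose by 1.78 ± 0.39 (edgeR adjusted p = 0.0470) and ZFYVE1 by 0.98 ± 0.17 (edgeR adjusted p = 0.0212). The levels of tecpr1b were low. They averaged 2.89 CPM in exercised and 0.769 CPM in non-exercised Gr mutants, and 3.26 and 1.03 CPM in wild-type fish with and without exercise. TECPR1 tethers autophagosomes to lysosomes in mammals, and ZFYVE1 binds phosphatidylinositol 3-phosphate. Of 21 genes of mitophagy and other selective receptors 2 rose, mul1a by 0.67 ± 0.14 and fam134c by 0.83 ± 0.16, while edgeR called 0 of 11 genes of fusion with the lysosome and 0 of 30 lysosomal genes. In each of these last lists 1 gene, which was lower, had an unadjusted p under 0.05, against 7.32% of all genes in this direction and 15.1% in either, and DESeq2 called 0 in both. For the Gr mutation over both regimens, 6 of 21 genes of mitophagy and selective receptors fell, against 4.63% of all genes called as lower. pink1, the kinase that labels damaged mitochondria, averaged 29.6 CPM in exercised Gr mutants, against 64.6 CPM in wild-type fish that were exercised, and 28.3 CPM in non-exercised Gr mutants, against 67.2 CPM in non-exercised wild-type fish. It fell by 1.19 ± 0.17 on the log2 scale (edgeR adjusted p = 0.00266), and the others that fell were phb2a, phb2b, mul1a, ncoa4 and tax1bp1a. Of the other lists, pik3r4 and tmem41b fell among 13, rab7 and plekhm1 among 11, and tfeb and lamp1 fell while hexa and hexb rose among 30 lysosomal genes, against the same 4.63% called as lower and 3.3% called as higher. Among exercised fish 4 of 21 genes of mitophagy and selective receptors fell in Gr mutants (pink1, phb2a, phb2b and mul1a). So did 3 of 29 lysosomal genes (ctsla, atp6v1ba and ctsz), and both shares stand against 2.37% of all genes called as lower there. The median log2 fold change of the lysosomal genes was -0.49 with exercise and 0.32 without. Of 30 tested without exercise, 22 were higher in Gr mutants, against 53.6% of all genes. There edgeR called 0, against 0.233% of all genes, and DESeq2 called 4, against 4.84%. An unadjusted p under 0.05 was found for 8 higher and 2 lower ones, against 9.91% and 7.34% of all genes. Leukocyte markers were at 1304, 911 and 170.4 CPM in the 3 non-exercised Gr mutants, and their part in this was not tested. Without exercise atp6v1ba averaged 16.4 CPM in Gr mutants, against 8.19 CPM in wild-type fish. ctsz averaged 29.4 against 24.8 CPM there, while ctsla was lower in Gr mutants, at 34.9 against 50.5 CPM. tfeb, the transcription factor that drives genes of autophagy and the lysosome in mammals, averaged 20.6 CPM in exercised Gr mutants, against 34.03 CPM in wild-type fish that were exercised, and 15.9 CPM in non-exercised Gr mutants, against 40.4 CPM in non-exercised wild-type fish, a fall of 1.03 ± 0.26 on the log2 scale (edgeR adjusted p = 0.0316).

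Among the 6 genes of the name rule that did not reach the minimum, ULK4 (3 of 3) had 0 counts in every library, which allows up to 3 counts in each. The 2 genes named ulk4 had 37 and 17 counts in all libraries together, atg4db had 66 and atg2b had 75. map1lc3c, a further gene of LC3, had 38 of its 54 counts in exercised Gr mutant 3, the library with 197 CPM of oocyte markers, and at most 8 in any other. The part of the oocyte markers in this was not tested.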

How the data were processed

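White muscle RNA of 12 fish, 1 per library and 3 per group, was made into libraries with an unstranded kit and read as single ends of 50 nucleotides. The counts were deposited by the authors as whole reads per gene, without normalization, after alignment to GRCz10 with TopHat2 2.0.5, removal of secondary alignments with SAMtools 0.1.18 and counting with HTSeq 0.5.3p9. Reads that fit near-identical copies or overlapping genes on both strands cannot be assigned with certainty. The 4 deposited tables also hold the authors' fold changes and p-values from DESeq, which were not used, and 0 sample columns were left unused. Library totals were 7688323 to 13894240 counts, and the limit set on a count of 0, which is 3 counts, reflects counting error alone. Replicates of a group were distinct libraries, with a chi-square per gene of 16.9 or more between any 2 of them.

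The 4 pairwise comparisons used 6 libraries each and edgeR 4.0.16 (TMM, quasi-likelihood test, limma 3.58.1, R 4.3.3). Genes entered a fit with 10 or more counts in 3 or more of its libraries. Adjustment was by Benjamini-Hochberg over all genes tested, and the threshold was 0.05. Exercise with genotype as a term, the Gr mutation with exercise as a term, and their interaction were fitted over the 12 libraries. Tests were two-sided. Those for exercise and for the interaction were tested on simulated data with 200 changed genes, drawn from genes above a minimum mean level. Those for the Gr mutation were not tested in this way. The standard error is the log2 fold change over the square root of its F value. DESeq2 1.42.0, size factors of the RLE kind, no filter, the filter or the fit over all 12 libraries, the replicate number as a block and leaving out each library were the alternatives. Tables and figures were made with Python 3.11.15, pandas 2.3.3, numpy 2.4.6 and matplotlib 3.10.9.

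The autophagy genes and the lists were chosen with earlier results of these data known. Genes were given with all values if they passed the threshold in any comparison, if they had an unadjusted p under 0.05 in a pairwise comparison or the interaction at a mean of at least 20 counts, if the study names them (tp53inp1), or if they belong to a core list of map1lc3a, map1lc3b, map1lc3c, gabarapa, gabarapb, gabarapl2, sqstm1, becn1, ulk1a, ulk1b, ulk2, atg5, atg7, atg12, atg9a, atg16l1, wipi1, bnip3, bnip3la, bnip3lb and tp53inp2. Symbols are those of the deposited tables. Of the 51 identifiers, 47 matched a table of reference names, under which GABARAPL1 is listed as zgc:92606. Those without a match were TP53INP2 (ENSDARG00000089986), WIPI1 (1 of 2), ULK4 (3 of 3) and the ulk4 gene ENSDARG00000102516. Their names rest on the deposited tables alone. Sequences and transcript lengths were not used here.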

Additional observations from a re-analysis of the deposited data

Results flagged for a closer look

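bnip3 was picked out because its exercised libraries lay above all non-exercised ones in Gr mutants and below all of them in wild-type fish. The difference between both log2 fold changes was 0.84 ± 0.28 and did not pass the adjusted threshold in edgeR's quasi-likelihood test over the 12 libraries (Benjamini-Hochberg adjusted p = 0.490, 0.334 to 0.756 with 1 library left out). Its cause was not tested, and the share of all genes with this opposite pattern was not counted.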

How the results depend on the processing

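The 47 log2 fold changes tested in several ways had been chosen for a low unadjusted p in the edgeR fits described above. None changed its sign, which this choice made unlikely from the start. Of their values under alternatives, 574 stayed on the same side of the threshold, 21 passed it and 33 lost it. Most of the 574 belong to results that were not called in those edgeR fits, and all 33 to the few that were. The number of autophagy genes called depended on the tool. DESeq2 called 3 for exercise in wild-type fish, 2 for exercise in Gr mutants, 2 for the Gr mutation without exercise, 9 for exercise over both genotypes and 5 for the Gr mutation over both regimens. Without a filter 1 gene was called for exercise in wild-type fish, and 1 for the Gr mutation without exercise when all 12 libraries shared a fit. With each library left out in turn, 0 to 1 genes were called for exercise in Gr mutants, 0 to 1 for the Gr mutation with exercise, 1 to 4 for exercise over both genotypes and 1 to 5 for the Gr mutation over both regimens. Over all genes the same omissions called 0 to 58 for exercise in Gr mutants (13675 to 14449 genes tested). For the Gr mutation with exercise they called 6 to 508 (13343 to 13947 tested). They called 32 to 311 for exercise over both genotypes and 639 to 1544 for the Gr mutation over both regimens (15632 to 16035 tested). The median log2 fold change of the autophagy genes then ranged from 0.20 to 0.43 for exercise in Gr mutants, from 0.028 to 0.17 for exercise in wild-type fish, from -0.35 to -0.16 for the Gr mutation with exercise and from 0.0089 to 0.26 for the interaction. The causes were not tested.

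Over all genes, DESeq2 called 395 for exercise in wild-type fish (54 in edgeR), 105 for exercise in Gr mutants (0), 726 for the Gr mutation without exercise (35), 944 with exercise (426), 776 for exercise over both genotypes (199), 2128 for the Gr mutation over both regimens (1274) and 32 for the interaction (0). Without a filter these were 142 for exercise in wild-type fish, 4 in Gr mutants, 126 for the Gr mutation without exercise and 104 for exercise over both genotypes. A shared fit called 6 for exercise in Gr mutants, 184 for the Gr mutation without exercise and 267 with exercise.

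The replicate numbers did not pair the samples: of 18 same-numbered pairs, 1 had a correlation of deviations over 0.1, and they ranged from -0.25 to 0.17, against -0.23 to 0.28 for other numbers. With the number as a block, 2 autophagy genes were called for exercise over both genotypes, 1 for the Gr mutation over both regimens, 1 for the Gr mutation with exercise and 0 in the other comparisons, and the block gave 4, 0, 0, 223, 90, 842 and 0 calls over all genes in the order of the 7 comparisons above.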

Other observations

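For the interaction of exercise and genotype among lysosomal genes, edgeR called 0 of 30 of them and DESeq2 called 1, while 10 had an unadjusted p under 0.05, all with a lower response to exercise in Gr mutants, against 5.08% of all genes in this direction. Their median log2 difference was -0.76, against -0.032 for all genes and 0.11 for the 45 autophagy genes (0.0089 to 0.26 with 1 library left out), and the difference between both lists was not tested. The leukocyte markers were at 1304 and 911 CPM in non-exercised Gr mutants 1 and 2 and at 170.4 CPM in non-exercised Gr mutant 3. The part of these markers in this was not tested.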
